A study of Mus musculus with 319 samples.

Results

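The 8 core circadian clock and clock output genes Arntl, Npas2, Cry1, Nfil3, Dbp, Bhlhe41, Per3 and Nr1d1 were followed across muscle of F2 mice. They were chosen by name. Each was read by 1 of the 23382 probes of the array, and the platform table names 10831 genes in all. All 8 probes gave a value on all 319 arrays, and none of these values lay at the ends of the deposited scale. The mice were an intercross F2 generation of C57BL/6J and C3H/HeJ, of both sexes, and carried a null Apoe allele from both parental strains. All of them ate a Western diet high in fat from week 8 to week 24 of age. RNA of each animal, labelled with Cy3, was hybridised on a 2-colour array against 1 pool, labelled with Cy5, that held equal amounts of RNA of all animals. All arrays therefore formed 1 group, no untreated group or other diet was included, and every value is a ratio to the mean animal rather than a level. The labels used here give no hour or day of tissue collection, no genotype and no hybridisation batch. They number the animals between 1 and 359, and 1 number, 227, is on 2 arrays.

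The sign of the ratio was set from Eif2s3y, a Y-linked gene, whose median log2 ratio was 1.08 on 155 arrays and -5.62 on 164, where a pool of these animals gives 1.04, so positive values stand for RNA that was more abundant in the animal. Of 50721 pairs of arrays, 3717 had r under -0.3 over all probes, and turning the sign of all ratios would leave every r between genes as it is. Array medians lay between -0.08 and 0.14, 0.654% of all values were missing, and the first principal component held 18.7% of the variance. Each animal number is on 1 array except 227, so the errors given are those between animals, and no technical repeat separates measuring error from them.

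The mammalian clock is a loop of transcription factors that runs in nearly every cell. BMAL1, the product of Arntl, pairs with CLOCK or with its relative NPAS2 and switches on genes through E-boxes, among them the Per and Cry genes, Nr1d1, Bhlhe41 and Dbp. PER and CRY proteins then block BMAL1, and REV-ERBα, the product of Nr1d1, shuts off Arntl, Npas2, Cry1 and Nfil3 through a ROR response element (RRE). DBP activates and NFIL3 represses genes through the D-box. In mouse tissues kept under light and dark, muscle among them, Arntl RNA is high when Dbp and Nr1d1 RNA are low, so muscles taken at different hours are known to hold more of the RNA of either Arntl or Dbp. The 8 genes are grouped here by that textbook phase: Arntl, Npas2, Cry1 and Nfil3 form the Arntl group, and Dbp, Bhlhe41, Per3 and Nr1d1 form the Dbp group.

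The promoters shown are those that held a match to any of the 3 motifs through which the loop acts, and that of Dbp, which held none. All 8 genes had at least 1 promoter in the RefSeq table of mouse build GRCm38.p6, each covering 250 bases before and 50 bases after the start of transcription. The motifs were searched on both strands: the E-box CACGTG, the D-box TTATGTAA or TTACGTAA, and the RRE. Arntl has 2 start sites in the table, and the window of the other one, start site 1, held no match. Capitals mark a match, and the motifs did not overlap each other in these windows.
Arntl, start site 2, chr7:113207261-113207560, plus strand: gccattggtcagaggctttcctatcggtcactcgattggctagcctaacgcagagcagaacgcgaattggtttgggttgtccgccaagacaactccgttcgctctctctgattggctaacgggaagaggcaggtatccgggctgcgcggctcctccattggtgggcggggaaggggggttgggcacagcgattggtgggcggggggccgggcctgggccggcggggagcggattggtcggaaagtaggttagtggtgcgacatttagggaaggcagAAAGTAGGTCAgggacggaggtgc
Cry1, chr10:85185005-85185304, minus strand: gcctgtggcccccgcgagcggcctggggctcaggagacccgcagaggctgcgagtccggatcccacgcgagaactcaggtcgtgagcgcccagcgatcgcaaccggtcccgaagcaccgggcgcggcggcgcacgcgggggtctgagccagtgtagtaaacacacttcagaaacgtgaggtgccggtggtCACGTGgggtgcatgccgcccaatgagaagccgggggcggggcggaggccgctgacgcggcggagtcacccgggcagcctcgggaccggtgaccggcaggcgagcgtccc
Dbp, chr7:45704997-45705296, plus strand: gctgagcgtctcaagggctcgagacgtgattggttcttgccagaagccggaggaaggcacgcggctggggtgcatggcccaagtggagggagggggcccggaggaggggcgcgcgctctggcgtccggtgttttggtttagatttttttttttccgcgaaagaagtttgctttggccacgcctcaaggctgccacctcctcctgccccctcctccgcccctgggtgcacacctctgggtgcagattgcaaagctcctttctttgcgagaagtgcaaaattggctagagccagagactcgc
Bhlhe41, chr6:145865371-145865670, minus strand: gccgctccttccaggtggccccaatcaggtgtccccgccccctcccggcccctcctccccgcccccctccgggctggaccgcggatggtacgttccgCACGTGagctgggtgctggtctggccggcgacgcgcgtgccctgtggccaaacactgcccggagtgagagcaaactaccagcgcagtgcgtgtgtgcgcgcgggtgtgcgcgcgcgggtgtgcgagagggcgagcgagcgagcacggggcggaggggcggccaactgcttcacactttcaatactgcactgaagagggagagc
Per3, chr4:151044616-151044915, minus strand: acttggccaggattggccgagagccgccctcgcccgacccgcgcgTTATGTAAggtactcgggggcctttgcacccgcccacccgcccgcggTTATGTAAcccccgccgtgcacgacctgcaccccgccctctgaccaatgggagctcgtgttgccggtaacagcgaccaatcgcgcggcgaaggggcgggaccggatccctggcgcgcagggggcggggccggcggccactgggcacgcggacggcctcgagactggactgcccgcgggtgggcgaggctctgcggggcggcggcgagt
The E-box stood 60 bases before the start in Cry1 and 153 bases before it in Bhlhe41. It occurred in 7.15% of the 32851 promoters of the table. Per3 held the D-box at 205 and at 158 bases before the start, a motif found in 1.06% of all promoters. The RRE lay in the sequence of Arntl, from base 27 after the start of transcription, and was found in 0.384% of promoters. No match was present in these windows of Dbp, Nfil3, Npas2 and Nr1d1. A match describes the letters only, and binding was not measured. Arntl and Dbp lie on the same chromosome, 7, in this build.

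Arntl, Nfil3 and Nr1d1 varied most from animal to animal, and Npas2 and Per3 hardly varied. Values are log2 ratios to the pool after the median of each array was subtracted. Arntl ran from -2.28 (animal 75) over a median of 0.02 to 1.67 (animal 359), with an SD of 0.447. Its 5th and 95th percentiles were 2.78-fold apart, and its SD was larger than that of 85.9% of probes. Nfil3, the repressor of D-box genes, ran from -1.44 (animal 75) over 0.15 to 1.24 (animal 344), with an SD of 0.433. Nr1d1, the repressor of Arntl, ran from -1.19 over 0.02 to 1.06, with an SD of 0.409. These 3 genes were each well above the middle of all probes in spread, as 84.8% and 82.8% of probes varied less than Nfil3 and Nr1d1.

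Cry1, which encodes the CRY1 repressor of BMAL1, ran from -1.40 (animal 75) over 0.05 to 0.52, with an SD of 0.263. Its low side was the longer: the 5th percentile was -0.42 and the 95th was 0.29. Dbp ran from -0.82 (animal 359) over 0.04 to 0.51, with an SD of 0.209 and a 1.63-fold range between the same percentiles. Its lowest value and the highest value of Arntl belonged to the same animal. Bhlhe41, which encodes the E-box repressor DEC2, had an SD of 0.192. Npas2 and Per3 had SDs of 0.112 and 0.0945, and only 5.74% and 1.69% of probes varied less. A probe with a weak signal is known to compress ratios toward 0, and the deposited table gives no signal beside the ratio, so whether these 2 genes were steady or poorly measured cannot be told apart.

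**Figure D1:**
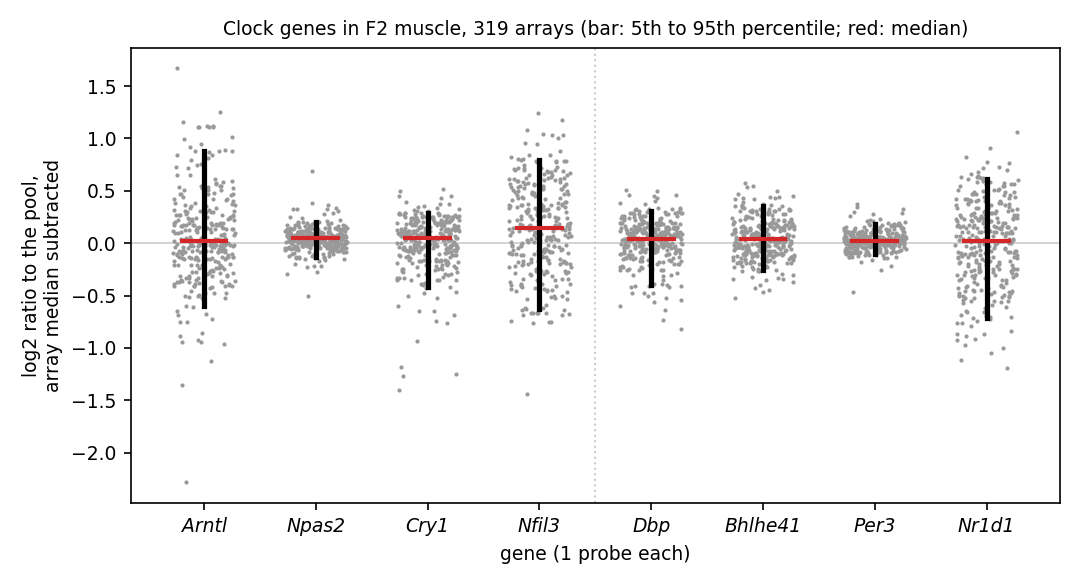
Log2 ratio to the pool, array median subtracted, of the 8 clock genes (x axis, 1 probe each) on 319 arrays (grey points). Black bars span the 5th to 95th percentile and red lines mark the median; Arntl, Nfil3 and Nr1d1 spread over 2.52-fold or more between these percentiles, while Npas2 and Per3 stay within 1.26-fold.

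Arntl and Dbp ran opposite to each other, Arntl rose with Nfil3 and Cry1, and Dbp rose with Bhlhe41 and Per3. The other genes were loosely tied or went against their group. For each of the 8 genes, all other probes were regressed on it with limma, with Benjamini-Hochberg adjustment over all probes, and a pair was called where the adjusted p was under 0.05 from both sides. Of the 12 pairs within a group, 9 had a positive Pearson r, 6 were called positive and 0 were called negative, and the median r was 0.162. Of the 16 pairs across the groups, 7 had a negative r, 3 were called negative and 1, Arntl with Nr1d1, was called positive, and the median r was 0.00937. The animals shared so much variation that most calls say little on their own. Of all probes, 61.7% were called in the fit on Arntl, 46.7% on Npas2, 78.6% on Cry1, 55.2% on Nfil3, 56.8% on Dbp, 50.6% on Bhlhe41, 40.9% on Per3 and 30% on Nr1d1. Each called pair was therefore also placed by rank or by absolute r among all 23189 other probes, as a description.

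The pair of Arntl and Dbp stood at the far end of that ranking. Its r was -0.598 over 319 arrays (Spearman rho -0.519, permutation p of each 1e-05, the smallest that 100000 resamples can give, and limma adjusted p = 4.09e-28). Among the 23189 probes, Arntl had the lowest r with Dbp of all, and Dbp had the second lowest with Arntl. Per SD of Arntl, Dbp was lower by 0.125 ± 0.00940 (SE) on the log2 scale. Leaving out the 2 arrays most distant from the Arntl median gave r = -0.606. The animals at the ends show the same opposition: animal 359 had Arntl at 1.67 and Dbp at -0.82, and animal 337 had Arntl at 1.25 and Dbp at -0.74. At the other end, animal 239 had Arntl at -1.12 and Dbp at 0.40. The 2 lowest animals of Arntl did not follow, since animal 75 had Arntl at -2.28 with Dbp at 0.03, and animal 55 had -1.36 with -0.11. Numbers 321 to 359 carried much of the strength. Without these 37 arrays r was -0.379 (limma adjusted p = 4.22e-10), and Arntl then ranked only 1223 from the bottom by r with Dbp. In that fit, 68.3% of probes were called on Arntl and 61.4% on Dbp.

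**Figure D2:**
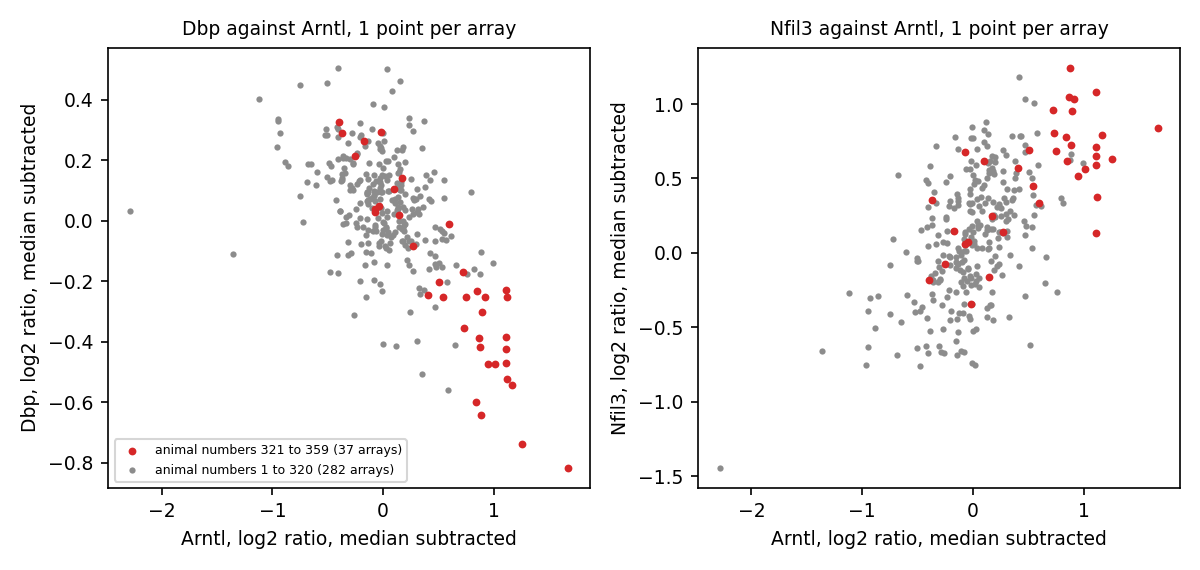
Dbp (left) and Nfil3 (right) against Arntl, as log2 ratios to the pool with array medians subtracted, 1 point per array. Animal numbers 321 to 359 are red (37 arrays) and 1 to 320 grey (282 arrays); Dbp falls and Nfil3 rises with Arntl, r -0.598 and 0.588 over all arrays, and many red points lie at the high end of Arntl.

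Nfil3 and Cry1 were high in the animals with high Arntl. Arntl with Nfil3 had r = 0.588 (rho 0.551, permutation p of each 1e-05, limma adjusted p = 1.42e-27). By r, Nfil3 ranked 6 from the top of all probes with Arntl, and Arntl ranked 5 from the top with Nfil3. Without numbers 321 to 359 r was 0.510, and these ranks were 1152 and 141. Animal 75 was the lowest of all for Arntl, Nfil3 and Cry1 at once, at -2.28, -1.44 and -1.40, and without the 2 arrays farthest from the Arntl median r was still 0.560. Arntl with Cry1 had r = 0.499 (rho 0.393, permutation p of each 1e-05, limma adjusted p = 2.48e-19). Seen from Arntl, Cry1 ranked 132 from the top. Seen from Cry1, Arntl ranked only 2861, because 5188 probes had an absolute r over 0.5 with Cry1 and 135 with Arntl. Cry1 with Nfil3 had r = 0.428 (limma adjusted p = 6.94e-14). Nfil3 ranked 3613 from the top with Cry1, and Cry1 ranked 225 with Nfil3.

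Within the Dbp group the ties were weaker. Dbp with Bhlhe41 had r = 0.340 (limma adjusted p = 1.16e-08), Bhlhe41 with Nr1d1 had r = 0.280 (limma adjusted p = 7.27e-06), and Dbp with Per3 had r = 0.236 (limma adjusted p = 0.000197). Dbp with Nr1d1, which the loop drives through the same E-boxes, had r = 0.0613 and did not pass the test (limma adjusted p = 0.445). Of all probes, 7.78% had a larger absolute r with Dbp than Bhlhe41 had, 10.3% a larger one with Bhlhe41 than Nr1d1 had, and 25.8% a larger one with Dbp than Per3 had. From the other side these shares were 3.94%, 4.99% and 10.3%. Across the groups, Nfil3 ran opposite to Dbp with r = -0.253 (limma adjusted p = 2.04e-05), where 23.0% of probes had a larger absolute r with Nfil3 and 22.3% with Dbp. But without numbers 321 to 359 its r was -0.0308 and the call ended (limma adjusted p = 0.674), where 59.1% of probes were called on Nfil3. Arntl with Bhlhe41 was just past the threshold, though 60.3% of probes had a larger absolute r with Arntl and 50.5% with Bhlhe41, at r = -0.125 (limma adjusted p = 0.0489), with rho -0.0365, and without those numbers at r = -0.00612 (limma adjusted p = 0.942), where 48.8% of probes were called on Bhlhe41.

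Nr1d1 had a weak positive r with Arntl. It was 0.250 (rho 0.342, permutation p of each 1e-05, limma adjusted p = 7.62e-05), and in each of the 9 stretches of 40 animal numbers r was positive, between 0.102 and 0.605. Of all probes, 30.3% had a larger absolute r with Arntl than Nr1d1 had, and 7.64% had a larger one with Nr1d1 than Arntl had. By the textbook phase used for the grouping, Arntl and Nr1d1 stand in opposite groups. Whether the hour of collection bears on the sign of their r was not tested, because no label used here gives it. Npas2, the partner of BMAL1, was called in no pair, with r between -0.0966 (Cry1) and 0.0545 (Nr1d1). Per3 was called only with Dbp. Both depended on median subtraction. Without it, Npas2 was called positive with Per3 (r = 0.213), Dbp (0.201), Bhlhe41 (0.177) and Nfil3 (0.131). Per3 was then also called positive with Bhlhe41 (0.249) and Nfil3 (0.136).

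**Figure D3:**
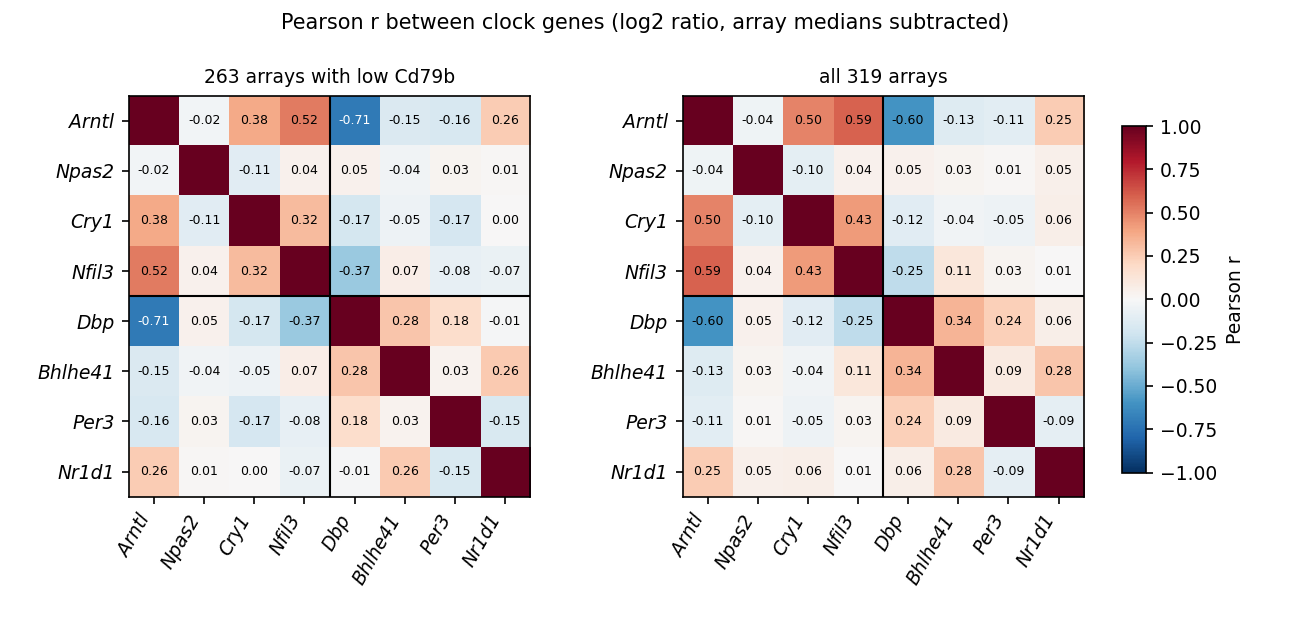
Pearson r between the 8 clock genes (log2 ratios, array medians subtracted), on the 263 arrays with Cd79b at or below 0.706 of its level in the pool (left) and on all 319 arrays (right). Black lines separate the Arntl group from the Dbp group; Arntl with Dbp is the darkest blue cell in both panels, at -0.71 and -0.60.

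Arntl and Dbp ran opposite both on arrays with few and on arrays with many lymphocyte transcripts. The 263 arrays with Cd79b, a B cell receptor gene, at or below 0.706 of its level in the pool, before median subtraction, were taken alone. Arntl with Dbp then had r = -0.709, and each gene was the lowest of all probes by r with the other. Nfil3 with Dbp had r = -0.371 (limma adjusted p = 9.63e-08), Arntl with Nfil3 0.517, Arntl with Cry1 0.377 and Arntl with Nr1d1 0.256. On these arrays 6 pairs within a group were again called positive, 5 across the groups were called negative and 1 positive. Cry1 with Dbp (r = -0.172), Cry1 with Per3 (-0.166) and Arntl with Per3 (-0.158) were called here and not over all arrays, and Arntl with Bhlhe41 was no longer called (limma adjusted p = 0.0583). Of all probes, 40.7% were called there on Arntl, 33.2% on Npas2, 73.6% on Cry1, 19.3% on Nfil3, 44.4% on Dbp, 27.3% on Bhlhe41, 33.2% on Per3 and 26.3% on Nr1d1. On the 56 arrays with Cd79b above the limit, Arntl with Dbp had r = -0.684, Arntl with Nfil3 0.708 and Arntl with Cry1 0.705. In both sets r of Arntl with Dbp was farther from 0 than over all arrays. The difference between these sets of arrays was not tested, since the sets were cut from measured values.

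Over all arrays, markers of other cells moved with most of the clock genes. Of 10 lymphocyte probes, 9 were lower with higher Arntl, 9 with Cry1, 9 with Nfil3, 8 with Dbp, 9 with Bhlhe41, 7 with Per3 and 9 with Nr1d1, where 31.7%, 40.8%, 28%, 28.8%, 26.8%, 19.4% and 16.5% of all probes were lower. On the low-Cd79b arrays 4 of 10 were lower with Arntl and 6 with Cry1, where 20.3% and 38.1% of all probes were, and at most 2 with each of Nfil3, Dbp, Bhlhe41, Per3 and Nr1d1, where 9.62%, 22.4%, 15.4%, 14.8% and 12.6% were. The cut on Cd79b, itself in the lymphocyte list, narrows the range of these probes. No conclusion is therefore drawn from their lower counts there. Of 12 macrophage probes, 12 were lower with Dbp (median r -0.335), 11 each with Cry1, Nfil3 and Per3, 9 with Bhlhe41 and 6 with Arntl. On low-Cd79b arrays 10 were lower with Dbp and 7 with Cry1, but only 3 with Per3, 1 with Nfil3 and 0 with Arntl or Bhlhe41. With Nr1d1 8 of the 12 were higher there, where 26.3% of all probes were called in either direction. Of 7 slow fibre probes, 7 were lower with Nfil3, 6 each with Cry1 and Bhlhe41 and 5 with Arntl. Of 6 adipocyte probes 5 each were lower with Cry1, Nfil3 and Dbp, and on low-Cd79b arrays 2, 1 and 5 were. With Nr1d1 4 of the 6 were higher on those arrays. Of 7 neutrophil probes 7 were lower with Cry1 and 4 with Arntl, and of 5 keratinocyte probes 5 were lower with Cry1, 4 with Nfil3 and 3 with Arntl. On low-Cd79b arrays these counts were 7 and 1 for neutrophil probes, and 4, 3 and 0 for keratinocyte probes. Of 5 endothelial probes 3 each were higher with Arntl, Cry1 and Nr1d1, where 30%, 37.8% and 13.5% of all probes were. Of 5 erythroid probes at most 1 was called with any clock gene, and of 4 liver probes at most 2 were higher and 1 lower. What part these cells have in the pairs was not tested. With the mean levels of markers of 7 cell types as covariates, Arntl with Dbp had a partial r of -0.758. Of the 9 muscle marker genes, 7 were on the array, and their probes had values on 22 to 242 arrays, so none could be tested. In whole muscle, fewer cells of a type and less RNA per cell cannot be told apart.

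Along animal number, Arntl, Nfil3 and Dbp shifted most among the 8 genes. A curve of animal number (natural spline, 5 degrees of freedom) took 29.0% of the variance of Arntl (limma adjusted p = 5.09e-19), 24.2% of Dbp (7.95e-15) and 24.1% of Nfil3 (7.16e-15). Bhlhe41 was also called, at 5.05% (limma adjusted p = 0.0210), but was not on the low-Cd79b arrays (limma adjusted p = 0.0987, with 17.4% of probes called) or without numbers 321 to 359 (0.234). So 4 of 8 genes were called, where 36.1% of all probes were. Over all probes the median share was 3.18% and the 95th percentile 10.7%. Nr1d1, with 3.01%, and Cry1, with 1.76%, were not called. On a straight line 3 of 8 genes were called, where 28.7% of all probes were. Arntl was higher by 0.18 ± 0.0217 (SE) per 100 numbers (limma adjusted p = 1.48e-12; r = 0.423, rho 0.392) and Nfil3 by 0.16 ± 0.0213 (8.72e-11). Dbp fell by 0.03 ± 0.0111 per 100 numbers (limma adjusted p = 0.0430). Its call ended when array medians were not subtracted (limma adjusted p = 0.136), and without numbers 321 to 359 the slope turned to 0.03 (limma adjusted p = 0.0414). Without those numbers the slope of Arntl was 0.10, and the curve took 9.92% of the variance of Arntl, 9.00% of Dbp and 15.0% of Nfil3, all still called. There 34.8% of probes were called on the line and 40.1% on the curve.

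Over all 319 arrays, animals with neighbouring numbers were alike for the same 3 genes. The r between an array and the next by number was 0.448 for Arntl, 0.407 for Dbp and 0.398 for Nfil3, above 99.6%, 99.3% and 99.3% of all probes. The median over all probes was 0.0952. The likeness faded with distance, to 0.257 for Arntl, 0.225 for Dbp and 0.242 for Nfil3 at 10 arrays apart, and to -0.0124, -0.0159 and 0.0964 at 40 arrays apart. For Nr1d1 the next-array r was 0.213, and for Cry1 it was 0.105. These values include the run of numbers 334 to 359 described below, and the likeness without that run was not computed. Differences of Arntl and Dbp between an array and the next had r = -0.522 over 318 successive pairs. With the curve of animal number as a covariate the partial r of the pair was -0.559.

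**Figure D4:**
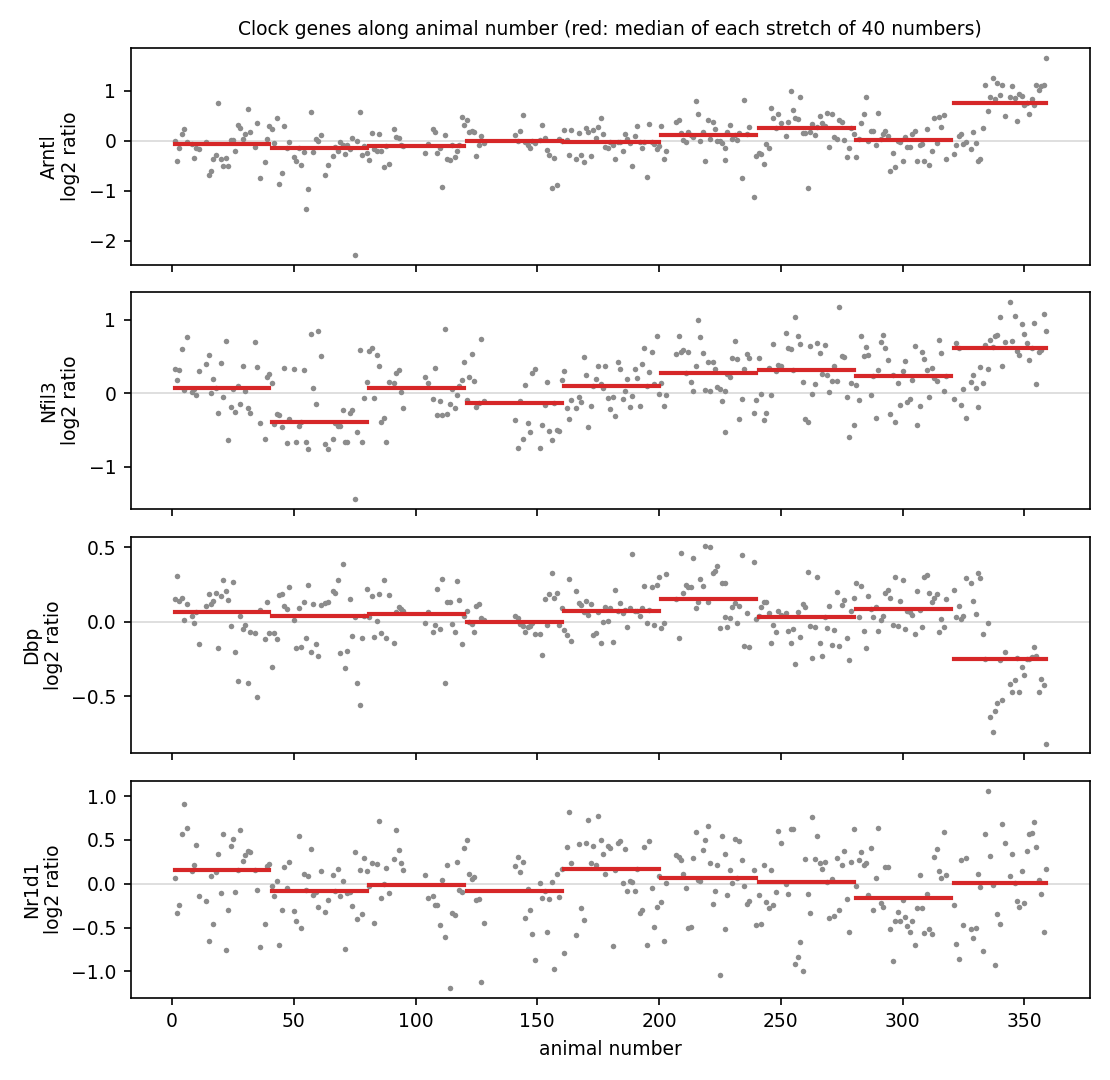
Log2 ratio to the pool, array median subtracted, of Arntl, Nfil3, Dbp and Nr1d1 against animal number, 1 grey point per array. Red lines give the median of each stretch of 40 numbers; in the last stretch the medians are 0.75 for Arntl, 0.61 for Nfil3 and -0.25 for Dbp, while that of Nr1d1 is 0.00.

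A step in Arntl and Dbp, and a less sharp one in Nfil3, lay between animals 333 and 334. This boundary was read from the values, so it is described and not tested. Arntl was 1.11, 0.60, 0.88, 1.25, 0.84 and 1.16 in animals 334 to 339, against -0.17, 0.17, -0.04, -0.39, -0.37 and 0.27 in animals 328 to 333. Dbp was -0.25, -0.01, -0.64, -0.74, -0.60 and -0.54 in the later 6 animals, against 0.26, 0.14, 0.05, 0.33, 0.29 and -0.08 in the earlier 6. Every one of the later 6 was above the earlier 6 for Arntl, and for Dbp all but animal 335 were below them. For Nfil3 all but animal 335 (0.34) were above the earlier 6, but animals 322 and 323 were already at 0.68 and 0.61. Over the 25 arrays with numbers 334 to 359, Arntl lay between 0.41 and 1.67 with a median of 0.89, Dbp between -0.82 and -0.01 with a median of -0.39, and Nfil3 between 0.13 and 1.24 with a median of 0.69. Over the 294 arrays before them, the medians were -0.01, 0.07 and 0.12. The ranges overlapped at their edges: of the 294 earlier arrays, 25 had Arntl at 0.41 or above and Dbp at -0.01 or below. These 2 edges come from different arrays, animals 347 and 335. Among the earlier arrays the highest Arntl was 0.99 (animal 254), with Dbp at -0.14. The lowest Dbp there was -0.56 (animal 77), with Arntl at 0.59. Nr1d1 had a median of 0.15 over the later 25 arrays and 0.02 over the 294 before, but the 12 arrays just before the boundary had a median of -0.49. Of the later 25 arrays 6 had high Cd79b, as had 50 of the 294.

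Arntl and Dbp also ran opposite inside every stretch of the numbers. Within the 9 stretches of 40 numbers r lay between -0.301 (numbers 41 to 80, where 18 of 37 arrays had high Cd79b) and -0.916 (numbers 321 to 359). That last stretch crosses the step between animals 333 and 334, so its r includes the difference between the 2 sides. Arntl had a median of -0.06 on the 12 arrays before the step and 0.89 on the 25 after it, and Dbp 0.12 and -0.39. The r on each side alone was not computed. Arntl with Cry1 was positive in all 9, between 0.183 and 0.785, and Arntl with Nfil3 between 0.0286 and 0.662. Nfil3 with Dbp was negative in 7 of them and positive in numbers 1 to 40 (0.203) and 161 to 200 (0.0710). Whether the animals differed in the hour of collection was not tested, because no label used here gives it.

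**Figure D5:**
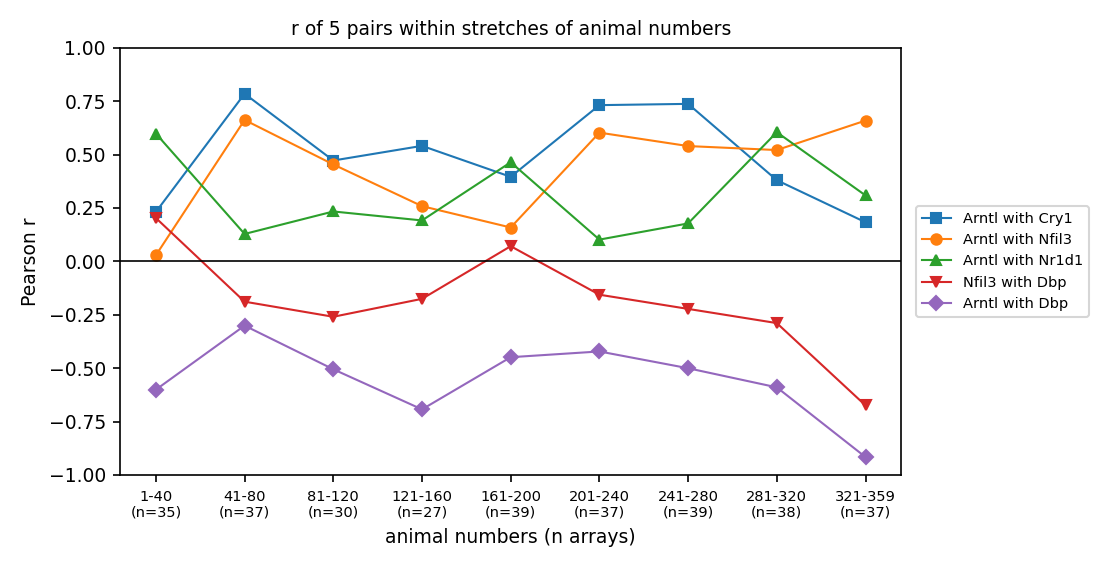
Pearson r of 5 pairs of clock genes (y axis) within stretches of 40 animal numbers (x axis, with the number of arrays in each). Arntl with Dbp stays below 0 throughout, between -0.301 and -0.916, and Arntl with Nr1d1 and with Cry1 stays above 0 throughout. The last stretch crosses the step between animals 333 and 334.

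Other genes of the loop followed Dbp, and their relation to Arntl depended on which arrays were used. Of 12 further clock genes, 8 were measured, by 10 probes. With higher Dbp, 8 of 10 probes were higher and 0 lower, where 28% of all probes were higher, with a median r of 0.282. With higher Arntl, 0 were higher and 5 lower, where 31.7% of all probes were lower, with a median r of -0.139. Per1, a partner of CRY in repression, was lower with Arntl (r = -0.367) and higher with Dbp (r = 0.290). Per2 was higher with Dbp (r = 0.371), and its r with Arntl was -0.0803 on all arrays. That value was -0.309 on low-Cd79b arrays and 0.247 without numbers 321 to 359. Nr1d2, the relative of Nr1d1, had 2 probes, and both were higher with Dbp (r = 0.388 and 0.197). Clock, the partner of BMAL1, was higher with Dbp (r = 0.364) and had r = 0.101 with Arntl, which did not pass the test (limma adjusted p = 0.108). On low-Cd79b arrays 7 of the 10 probes were lower and 0 higher with Arntl, where 20.3% and 20.4% of all probes were. Without numbers 321 to 359, 7 of 10 probes were higher with Dbp, where 30.3% of all probes were. With Arntl 5 were then lower and 3 higher, where 35.6% and 32.7% of all probes were, near the background. The 3 higher were Bhlhe40 (r = 0.331), Per2 and Clock (0.137).

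The D-box activators Tef and Hlf were less closely tied. Tef, a relative of Dbp, had r = 0.198 with Dbp (limma adjusted p = 0.00121), and Hlf had r = 0.00711 (limma adjusted p = 0.920). Among the kinases and ubiquitin ligases that control PER and CRY stability, 8 genes were tested by 10 probes. With Arntl 6 of the 10 were higher and 3 lower, where 30% and 31.7% of all probes were, with Csnk1a1 (r = 0.545) and Fbxw11 (0.455) among the higher. On low-Cd79b arrays 3 were higher and 2 lower, where 20.4% and 20.3% of all probes were. The 3 probes of Csnk2a1 disagreed, with r of 0.192, -0.328 and -0.338 with Arntl.

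Among rhythmic outputs of muscle, Wee1, the cell cycle kinase that BMAL1 drives through E-boxes, ran opposite to Arntl (r = -0.489) and was higher with Dbp (r = 0.148). Nampt, the enzyme that recycles nicotinamide to NAD and another E-box target, rose with Arntl (r = 0.420) and ran opposite to Dbp (r = -0.273). Ucp3, the mitochondrial carrier of muscle, rose with Arntl (r = 0.376) and Nfil3 (r = 0.490). Lpl, the lipase that frees fatty acids from lipoproteins, was lower with Dbp (r = -0.439). In all, 3 of the 7 probes of this list were higher and 1 was lower with Arntl, where 30% and 31.7% of all probes were, so the list as a whole was near the background.

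Genes that respond to glucocorticoids or fasting followed Nfil3. Of 11 probes of 10 genes, 7 were higher with Nfil3 and 1, Foxo3 (r = -0.310), was lower, where 27.2% and 28% of all probes were, and the median r was 0.337. On low-Cd79b arrays the counts were again 7 and 1, where 9.63% and 9.62% were. Tsc22d3, the glucocorticoid-induced leucine zipper gene, had r = 0.577 with Nfil3, Fkbp5, a chaperone of the glucocorticoid receptor, 0.558, the kinase gene Sgk1 0.445 and Klf15, a regulator of fasting metabolism, 0.423. Tsc22d3 also changed along animal number, with 21.4% of its variance on the curve (limma adjusted p = 1.01e-12). With Dbp 3 were higher and 4 lower, where 28% and 28.8% of all probes were. Of 7 immediate early probes, 3 were higher and 2 lower with Nfil3. Nr4a1, an immediate early nuclear receptor gene, was higher with Dbp (r = 0.492).

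The genes most like each clock gene were taken as the 3 named genes of highest and the 2 of lowest r over 319 arrays. For both Arntl and Nfil3 the top gene was Slc38a2, an amino acid transporter gene, with r = 0.613 and 0.645. Arntl was next to Tbpl1 (0.593) and Pcgf6 (0.588), and lowest were Dbp (-0.598) and the ribosomal protein gene Rpl6 (-0.560). Nfil3 was followed by Ppp2r2d (0.624) and Noct (0.606), the gene of the deadenylase Nocturnin that is rhythmic in many mouse tissues, and Vmac and Cxxc5 were lowest (both -0.559). Nr1d1 had Bhlhe40, the gene of the clock repressor DEC1, at the top (0.673), then Dusp10 (0.620) and Slc45a4 (0.573), and at the bottom Npm1 (-0.507) and Eef1b2 (-0.505). Bhlhe40 kept r = 0.672 on low-Cd79b arrays and 0.720 without numbers 321 to 359. Dbp had Plekhh3 (0.531), Stk11 (0.511) and Dcaf8 (0.505) at the top and Arntl and Dapk1 (-0.561) at the bottom.

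Cry1 was part of a far tighter block than the other clock genes. Its top genes were Laptm4b (0.872), Snx3 (0.867) and Maea (0.861), and its lowest were Crip1 (-0.766) and Fryl (-0.766). Bhlhe41 had Rhobtb2 (0.595), Ppp1r14b (0.592) and Kif3c (0.592) at the top and P2ry14 (-0.522) and Sesn1 (-0.520) at the bottom. For Npas2 the top genes were Pdik1l (0.513), Nlrp2 (0.490) and Mxd1 (0.482), and the lowest Pappa2 (-0.405) and 4933400C23Rik (-0.371). For Per3 the top genes were Masp2 (0.481), Chp1 (0.472) and Vamp2 (0.440), and the lowest Prdm16 (-0.420) and Tlr3 (-0.361). The median absolute r over all probes was 0.281 with Cry1, against 0.164 with Arntl, 0.144 with Dbp and 0.0847 with Nr1d1, so the same r ranks higher for Nr1d1 than for Cry1.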

How the data were processed

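Muscle RNA of 319 arrays was analysed from the authors' deposited log10 ratios, in which values stop at -2 and 2 (a 100-fold ratio). That the values are log10 and run as animal over pool was derived from the values. Scanner, background correction, normalisation and the build behind the probes are not given in the sources used here. Ratios were turned to log2 and each array's median was subtracted. Probes were named through RefSeq: 13639 had 1 gene symbol and 12647 of them matched. Probes with values on at least 80% of arrays (23190) were fitted with limma 3.58.1 in R 4.3.3 on each clock gene (8 fits), on animal number as a line and as a spline, with Benjamini-Hochberg adjustment over all probes. Pearson r and Spearman rho of the 28 pairs had permutation tests of 100000 resamples, two-sided. Where covariates were used, r is the partial correlation from the fit, the correlation left after the covariates. The limma and permutation tests treat arrays as independent. Arrays of neighbouring numbers were alike for some genes, so these p-values can be too small. The fit on Arntl was tested on simulated data of 23190 probes. There 95 of 100 probes changed by 0.3 SD and 100 of 100 changed by 0.6 SD were called, with 11 false calls among the unchanged probes. The simulated noise was independent between probes and between arrays, unlike in these data, so the check does not give the rate of false calls in the real fit.

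The genes, the lists and the tests were chosen with earlier results of these data known. The text names the 8 clock genes, members of lists beside the counts of their list, and for each clock gene the 3 other named genes of highest and the 2 of lowest r. The arrays are 1 group, their labels tell them apart only by animal number, and precision is bounded by how many arrays there are. Eif2s3y splits them into 155 and 164 arrays, and no fit took this split or sex into account. The alternatives were medians not subtracted, quantile normalization, low or high Cd79b arrays alone, the first principal component or the spline as covariate, values at the limits missing, no coverage filter and no second array of animal 227. Marker levels of 7 cell types as covariates and numbers 1 to 320 alone were chosen after seeing the data. The labels disagree in places: 1 title gives animal 399 where its source name gives 339, and the descriptions name 330 mice where the series design names 319. The 2 arrays of number 227 had r = 0.535 over probes and were kept as 2 arrays. In the order of the series, the array labelled 227_2 stands between animals 226 and 228. The one labelled 227 stands between animals 326 and 328, where the number between them is missing. Whether its label is wrong cannot be told from the labels.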

Additional observations from a re-analysis of the deposited data

How the results depend on the processing

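The opposition of Arntl and Dbp was called under all 11 alternatives, with r between -0.758 (partial r, marker levels as covariates) and -0.379. So were Arntl with Nfil3 (0.471 to 0.708), Arntl with Cry1 (0.321 to 0.705) and Cry1 with Nfil3 (0.273 to 0.475). Dbp with Bhlhe41, Dbp with Per3, Bhlhe41 with Nr1d1 and Arntl with Nr1d1 lost their calls on the 56 arrays with high Cd79b, and kept them under the other alternatives. Pairs across the groups called negative numbered 3, and were 5 on low-Cd79b arrays, 6 with the first principal component, 6 with marker levels as covariates and 1 on numbers 1 to 320. Within a group, Npas2 with Cry1 (r = -0.134, limma adjusted p = 0.0359) and Per3 with Nr1d1 (r = -0.145, limma adjusted p = 0.0450) were called negative with the first principal component. On high-Cd79b arrays 3 pairs within a group were called in place of 6, 1 gene in place of 3 on the line and 2 in place of 4 on the curve. The call of Nfil3 with Dbp ended on high-Cd79b arrays and on numbers 1 to 320. That of Arntl with Bhlhe41 ended under 7 alternatives, even without the second array of animal 227. Without median subtraction 7 pairs gained a positive call. They were Npas2 with Nfil3, Dbp, Bhlhe41 and Per3, Nfil3 with Bhlhe41 and Per3, and Bhlhe41 with Per3. No coverage filter and values at the limits missing changed no pair's call. The probe of largest SD per gene was not run, since each gene has 1 probe. No paired analysis was possible because all arrays form 1 group. The cause of these changes was not tested.

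Apart from the slope of Dbp, directions turned only for results that had not passed the test. With quantile normalization r was 0.0765 for Arntl with Npas2, 0.0968 for Cry1 with Bhlhe41, 0.0110 for Cry1 with Dbp, 0.0687 for Cry1 with Per3, 0.0506 for Npas2 with Cry1 and -0.0432 for Npas2 with Per3. Without median subtraction it was 0.0137 for Cry1 with Bhlhe41 and 0.0102 for Cry1 with Per3, and the slope of Bhlhe41 was 0.000547. On high-Cd79b arrays r was -0.0219 for Cry1 with Nr1d1, 0.0350 for Cry1 with Per3, -0.0804 for Nfil3 with Bhlhe41, -0.0706 for Nfil3 with Nr1d1, -0.0608 for Npas2 with Dbp, -0.0569 for Npas2 with Nfil3 and -0.190 for Npas2 with Per3, and the slope of Npas2 was -0.0272. On low-Cd79b arrays it was -0.0128 for Dbp with Nr1d1, -0.0656 for Nfil3 with Nr1d1, -0.0835 for Nfil3 with Per3 and -0.0369 for Npas2 with Bhlhe41, with slopes of -0.00492 for Cry1 and -0.00294 for Per3. With the first principal component it was -0.0121 for Dbp with Nr1d1, -0.0151 for Nfil3 with Bhlhe41, -0.0696 for Nfil3 with Nr1d1, -0.0770 for Nfil3 with Per3, -0.0114 for Npas2 with Bhlhe41, -0.00327 for Npas2 with Nfil3 and -0.0192 for Npas2 with Per3, with slopes of -0.00124 for Npas2 and -0.00336 for Per3. With marker levels it was -0.101 for Cry1 with Nr1d1, -0.0463 for Nfil3 with Bhlhe41, -0.139 for Nfil3 with Nr1d1, -0.0274 for Nfil3 with Per3 and -0.00723 for Npas2 with Per3, with slopes of -0.00552 for Cry1, -0.00302 for Npas2 and -0.000127 for Per3. With the spline it was -0.0224 for Nfil3 with Nr1d1. On numbers 1 to 320 it was -0.00351 for Npas2 with Nfil3 and -0.00466 for Npas2 with Nr1d1, with slopes of 0.0179 for Bhlhe41 and 0.0266 for Dbp.

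The number of probes called moved by over 1.5 times in these fits. Arntl had 14298, against 9442 on low-Cd79b arrays and 7958 after quantile normalization. Npas2 had 10820, against 4848 after quantile normalization. Nfil3 had 12805, against 4853 on high-Cd79b arrays, 4465 on low-Cd79b arrays and 4958 with marker levels. Dbp had 13169 and Nr1d1 6964, against 37 and 415 on high-Cd79b arrays. Bhlhe41 had 11743, against 6339 on low-Cd79b arrays and 7335 with the first principal component. Per3 had 9481, against 1 on high-Cd79b arrays, 15086 without median subtraction and 5194 with the first principal component. The line had 6662, against 18 on high-Cd79b arrays, 2570 on low-Cd79b arrays, 2727 with marker levels and 2929 with the first principal component. The curve had 8373, against 122, 4039, 3966 and 4126 in the same order.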
